A study of Mus musculus with 9 samples.

Results

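Isl1, Tbx1, Six2, Eya1, Foxc1, Foxc2, Foxf1, Nkx2-6 and Osr1 are transcription factor or transcriptional cofactor genes of the second heart field, the progenitor pool behind the primary heart tube. These 9 genes were taken by symbol, with no threshold on a measured value, from the 48397 gene symbols of the count files. Each of the 9 symbols was present in the files, and each passed the filter on low counts that left 16522 genes for testing. RNA was sequenced from the cardiac outflow tract, the arterial pole of the heart, of C57BL/6J mouse embryos at embryonic day 12.5. There were 4 wild-type libraries (Nkx2-5+/+, wild type 1 to 4) and 5 libraries homozygous for the deletion of an Nkx2-5 enhancer (Nkx2-5delta-enh/delta-enh, deletion 1 to 5), which the study's title places in the anterior second heart field. The deletion is of a regulatory element carried in every cell of the embryo, and the labels name no Cre driver or transgene. Whether each numbered sample is a separate embryo is not stated, and the p-values below therefore describe variation among these samples, some of which may be technical.

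The second heart field is a population of pharyngeal and splanchnic mesoderm cells that are added to both ends of the looping heart tube, the outflow tract being their anterior derivative. Isl1 is its classical marker and encodes a LIM homeodomain factor, which is also used in cranial, motor and sensory neurons. Tbx1, a T-box factor of the pharyngeal region and a gene of the 22q11 deletion syndrome, and the pair of Six2 and Eya1, a DNA-binding factor and a member of its phosphatase coactivator family, keep anterior progenitors proliferating. Foxc1 and Foxc2 are forkhead factors of mesoderm and neural crest upstream of Tbx1. Foxf1 and Osr1 mark the posterior, splanchnic part of the field, a source of atrial septum and of lung mesenchyme. Nkx2-6 is a relative of Nkx2-5 expressed in pharyngeal endoderm, sinus venosus and outflow tract. These genes are in general turned down as cells leave the field and differentiate, so an outflow tract at this stage holds a late remainder of their expression.

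Between 27707435 reads (deletion 4) and 49094225 reads (deletion 1) were assigned to genes per library. The deposited file names carry a number of unstated meaning that divides the libraries into a first set (wild type 1 and 2, deletion 1 and 2), a second set (wild type 3 and 4, deletion 3 and 4) and deletion 5 alone. Values are therefore also given within these sets. Heart muscle, smooth muscle, endothelial and epicardial markers were present in all 9 libraries: Tnnt2 at 1043 to 2271 CPM (counts per 1000000 reads of the tested genes, scaled between libraries), Acta2 at 1013 to 1901 CPM, Pecam1 at 119 to 188 CPM and Wt1 at 22.0 to 53.7 CPM. Nkx2-1, of lung and thyroid epithelium, was listed at 0 in every library except deletion 5 (0.425 CPM). Nkx2-5 itself, the gene next to the deleted element, was measured at 18.8, 42.0, 45.0 and 39.5 CPM in wild type 1 to 4 and at 16.5, 24.4, 17.8, 11.4 and 17.4 CPM in deletion 1 to 5. Its log2 fold change was -1.05 (standard error, SE, 0.264), with an edgeR adjusted p of 0.896 and a DESeq2 adjusted p of 0.058. Deletion 2 stands apart from the other 8 libraries by neuronal transcripts, described with Isl1. Without deletion 2 the log2 fold change of Nkx2-5 was -1.20 and its DESeq2 adjusted p was 0.00395. In edgeR none of the 16522 genes, Nkx2-5 included, then passed an adjusted p of 0.05. The Nkx2-5 groups did not overlap without deletion 2, as was so for 3.33% of all genes tested.

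In the GENCODE vM21 annotation of mm10 the 9 genes are protein coding and lie on 7 chromosomes. Isl1 (chr13:116298281-116309689), Tbx1 (chr16:18580979-18590671), Six2 (chr17:85684277-85688274) and Eya1 (chr1:14168954-14310235) are on the minus strand. Foxc1 (chr13:31806633-31812476), Foxc2 (chr8:121116171-121118895), Foxf1 (chr8:121084386-121088144), Nkx2-6 (chr14:69171802-69175518) and Osr1 (chr12:9570116-9581500) are on the plus strand. Foxc1 and Foxc2 have a single exon, and Foxf1 and Foxc2 are close together on chromosome 8. Counts sum over all exons of a gene, so the values below do not separate isoforms.

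The RefSeq promoter table (GRCm38.p6, which is mm10) held windows for 4 of the 9 genes: Foxc1, Isl1, Six2 and, with 2 start sites, Tbx1. Each of the 5 windows spans 250 bases before to 50 bases after a start. They were searched on both strands for 5 short motifs of factors that act in this network, which do not overlap each other in these windows. The upstream 250 bases are shown for Isl1 and Tbx1, the genes with the lowest p for genotype below, and for Six2, which holds a match; capitals mark a match, and the sequences run 5′ to 3′ on the gene's strand. The Isl1 bases are chr13:116309689-116309938 (minus strand), those of Tbx1 chr16:18590672-18590921 (minus) and those of Six2 chr17:85688255-85688504 (minus).
Isl1: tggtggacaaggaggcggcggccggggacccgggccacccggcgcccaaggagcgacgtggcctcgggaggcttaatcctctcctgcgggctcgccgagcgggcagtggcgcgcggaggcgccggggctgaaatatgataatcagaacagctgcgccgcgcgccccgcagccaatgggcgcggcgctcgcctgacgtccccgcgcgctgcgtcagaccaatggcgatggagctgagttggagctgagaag
Tbx1: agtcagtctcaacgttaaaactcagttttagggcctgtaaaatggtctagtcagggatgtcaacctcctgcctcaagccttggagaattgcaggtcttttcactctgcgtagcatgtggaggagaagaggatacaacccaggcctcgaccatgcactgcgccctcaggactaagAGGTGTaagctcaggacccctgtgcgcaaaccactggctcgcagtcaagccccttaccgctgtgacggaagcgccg
Six2: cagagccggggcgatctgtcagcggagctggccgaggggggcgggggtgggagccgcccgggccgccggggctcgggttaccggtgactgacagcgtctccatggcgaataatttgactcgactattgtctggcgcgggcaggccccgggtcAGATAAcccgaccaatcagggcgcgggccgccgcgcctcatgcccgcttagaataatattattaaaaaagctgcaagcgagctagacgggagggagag
The motif of GATA factors (letters AGATAA) occurs in the Six2 window (capitals) and, just after the start and so outside the bases shown, in the Isl1 window. Of the 32851 mouse windows of this length, 11.2% hold it. AGGTGT, a T-box core, occurs in the Tbx1 window shown (capitals) and in 13.7% of all windows. The NKX2-5 element TNAAGTG (11.5% of all windows), the forkhead core TAAACA (13.4%) and the homeodomain core TAATTG (8.0%) occur in none of the 5 windows, which says only that these letters are not there.

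Read counts were put on a per-length scale to order the 9 genes, as CPM per kilobase of annotated exon, with the mean ± SD over the 9 libraries. Osr1, a zinc finger factor, had the highest level at 38.2 ± 23.3, above Isl1 in 8 of 9 libraries. Isl1 followed at 13.7 ± 8.61, Foxc1 at 10.5 ± 2.72 and Foxc2 at 8.94 ± 2.23. The order of Isl1 and Foxc1 was not fixed, since Isl1 was above Foxc1 in only 3 of 9 libraries. A gap without overlap separated Foxc2 from Six2 (1.96 ± 0.550), and Six2 was above Nkx2-6 in 8 of 9 libraries. Nkx2-6 (1.09 ± 0.798), Foxf1 (1.07 ± 1.12) and Tbx1 (1.06 ± 0.621) did not differ beyond their spread. Eya1 was lowest at 0.164 ± 0.143, below Tbx1 in every library. Within a gene, the highest library exceeded the lowest by 2.21-fold for Foxc2, 2.22-fold for Six2 and 2.42-fold for Foxc1, by 4.88-fold to 5.02-fold for Tbx1, Isl1 and Osr1, and by 11.9-fold for Foxf1 and 14.4-fold for Nkx2-6. For Eya1 the lowest library, deletion 5, held 2 reads.

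**Figure D1:**
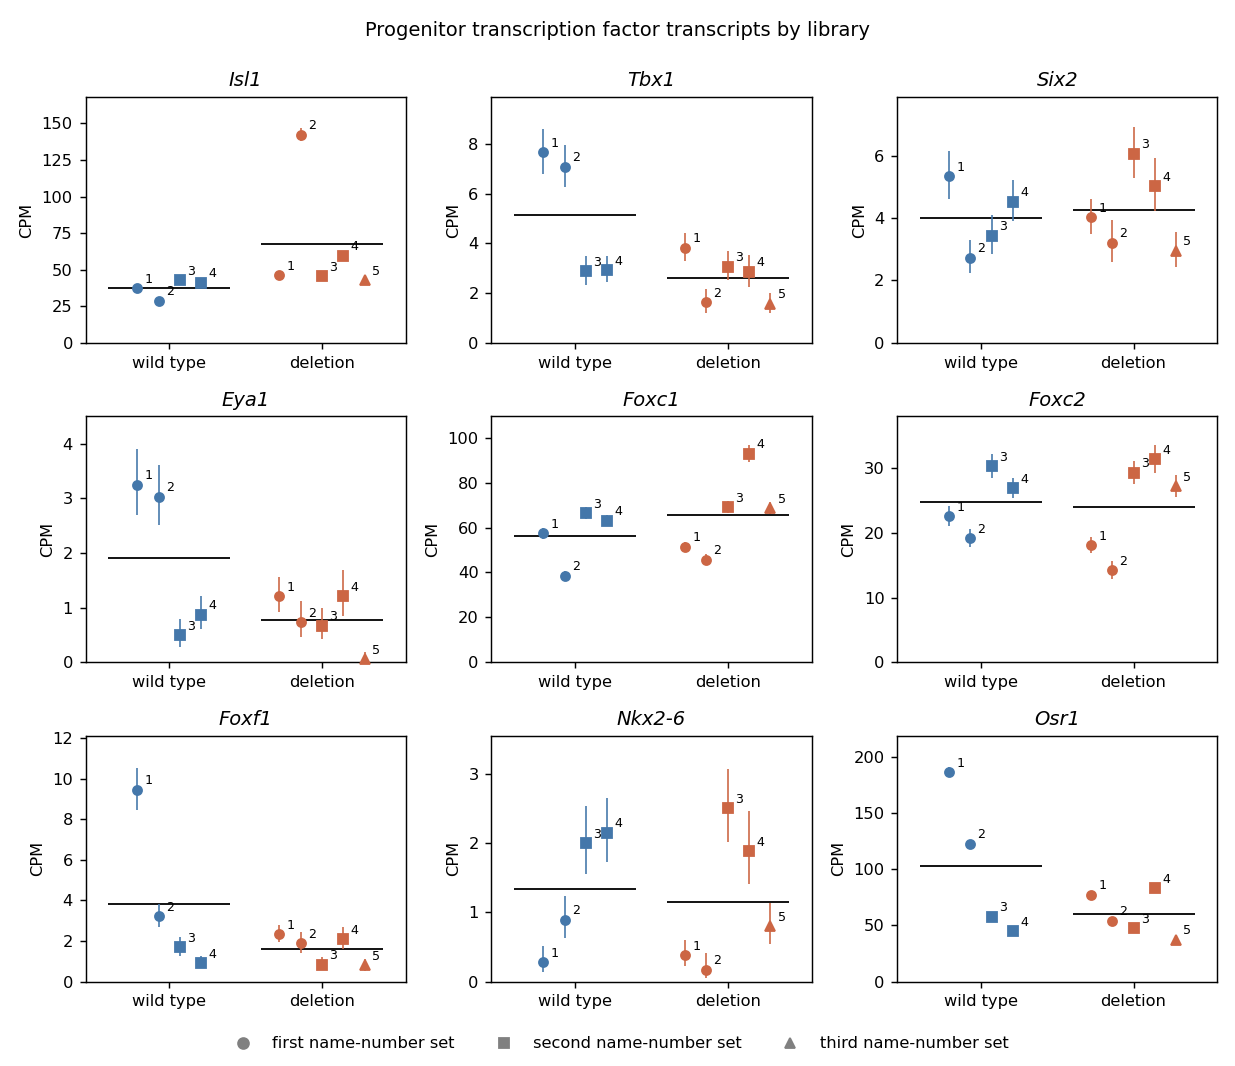
Level of each gene in each library, in CPM (linear axis from 0), by genotype; numbers are replicate numbers, marker shapes are the name-number sets, horizontal lines are group means and vertical bars are 95% Poisson intervals of the read count (counting error only). Isl1 has 1 library far above the rest (deletion 2, 142 CPM), Tbx1, Eya1, Foxf1 and Osr1 are highest in wild type 1 and 2, and Foxc1, Foxc2 and Nkx2-6 separate the first set (circles) from the second (squares).

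The genotype comparison asks whether loss of the Nkx2-5 enhancer alters progenitor gene expression in the outflow tract. No gene of the 16522 passed an adjusted p of 0.05 in edgeR's quasi-likelihood test (0%), and none of the 9 did in edgeR or in DESeq2, which called 38 of 18944 genes (0.201%). At an unadjusted edgeR p of 0.05, 2 of the 9 genes passed, Isl1 higher and Tbx1 lower in the deletion libraries, against 5.27% of all genes tested (2.32% higher and 2.94% lower). In DESeq2, 4 of the 9 had an unadjusted p below that threshold (Isl1, Tbx1, Osr1 and Foxf1), against 4.66% of the 28085 genes in that fit. The estimates were above 0 for 3 genes and below 0 for 6, with a median log2 fold change of -0.22 against 0.0029 over all genes tested. No gene of the 9 had groups without overlap, as 1.80% of all genes did. Without deletion 2, 1 of 9 had an unadjusted edgeR p below 0.05, Isl1, again higher, against 5.38% of all genes (1.86% higher and 3.52% lower). Then 5 estimates were above 0 and 4 below, the median was 0.06, and still none of the 9 had groups without overlap, against 3.33% of all genes. DESeq2 called none of the 9 without deletion 2 and 65 of 17375 genes (0.374%). At an unadjusted DESeq2 p below 0.05 there were then 3 of the 9 (Isl1, Tbx1 and Foxf1), against 1348 of 27577 genes. No gene of the 9 had an unadjusted edgeR p below 0.05 without wild type 1 (5.81% of all genes) or without wild type 2 (3.06%). There were 3 without wild type 3 (5.59%) and 3 without wild type 4 (5.92%). With the replicate number as a block none of the 9 had one (4.84% of all genes). Deletion 5 has no wild-type library of its number, so it adds nothing to the genotype estimate in the block fit. Changes from the main fit therefore mix the block with the loss of deletion 5. The log2 fold changes were then nearer 0 for Eya1 (-0.66), Foxf1 (-0.70), Osr1 (-0.48), Tbx1 (-0.75), Isl1 (0.79) and Foxc1 (0.18), and farther from it for Six2 (0.20), Foxc2 (-0.14) and Nkx2-6 (-0.34).

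**Figure D2:**
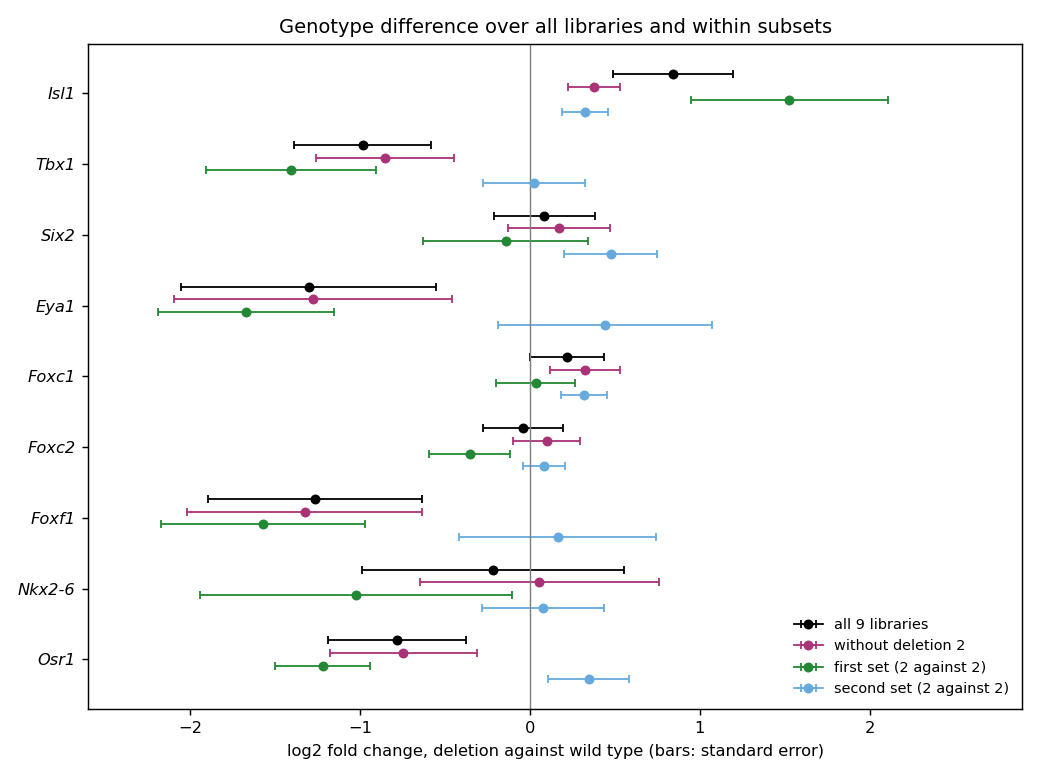
Log2 fold change of deletion against wild type from edgeR (horizontal axis; bars are the standard error) for the 9 genes (rows), over all 9 libraries, without deletion 2, and within the first and the second name-number set (2 against 2 libraries each). Within the second set all 9 estimates lie between 0.02 and 0.48, while within the first they run from -1.67 (Eya1) to 1.53 (Isl1).

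Isl1 was measured at 37.3, 28.8, 42.9 and 41.0 CPM in wild type 1 to 4. In deletion 1 to 5 it was at 46.3, 142, 45.7, 59.7 and 42.9 CPM. Deletion 2 was thus far above all other libraries, and the remaining deletion libraries were above the wild types except for deletion 5, which fell just short of wild type 3. The means were 37.5 ± 6.24 CPM (SD, n = 4) and 67.4 ± 42.4 CPM (n = 5), or 48.6 ± 7.53 CPM (n = 4) without deletion 2. The log2 fold change was 0.84 (SE 0.355, unadjusted edgeR p = 0.0384, adjusted p = 0.896), and an exact two-sided permutation test gave p = 0.0635 where the smallest possible is 0.00794. Without deletion 2 it was 0.38 (SE 0.154, unadjusted edgeR p = 0.0346, adjusted p = 0.905), and the exact permutation p was 0.0571, with 0.0286 the smallest possible. So the difference shrank by more than its standard error when 1 library was left out, and the spread shrank with it. Within the first set the log2 fold change was 1.53, and within the second 0.33.

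Genes of neurons and Schwann cells moved with the Isl1 value of deletion 2. The summed level of the 24 genes of that list, all of them in the files and none at 0 in every library, was 155 to 211 CPM in wild type and 164 to 203 CPM in the other 4 deletion libraries, against 3843 CPM in deletion 2. Among its defining genes, Nefl, a neurofilament subunit, reached 1050 CPM there and 42.6 CPM at most elsewhere, and Sox10, a glial and neural crest factor, reached 15.7 CPM against 1.61 CPM at most. Of the 19 tested genes of the list, 5 were higher at an unadjusted edgeR p below 0.05 (2.32% of all genes) and none lower. Without deletion 2 there was 1 higher (1.86% of all genes) and 1 lower (3.52%), and the list's median log2 fold change went from 2.43 to -0.31. Isl2, the closest paralogue of Isl1 and likewise a neuronal LIM homeodomain gene, was at 30.7 CPM in deletion 2 and between 0.522 and 3.31 CPM in the other libraries. Eya2, a paralogue of Eya1, had its highest value in the same library (6.04 CPM, elsewhere at most 1.54), whereas Six2 and Eya1 did not. Over the 8 libraries without deletion 2, the correlation of Isl1 with the list's mean log2 CPM was -0.30 (0.80 over all 9), and the Isl1 difference was the 0.38 given above.

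**Figure D3:**
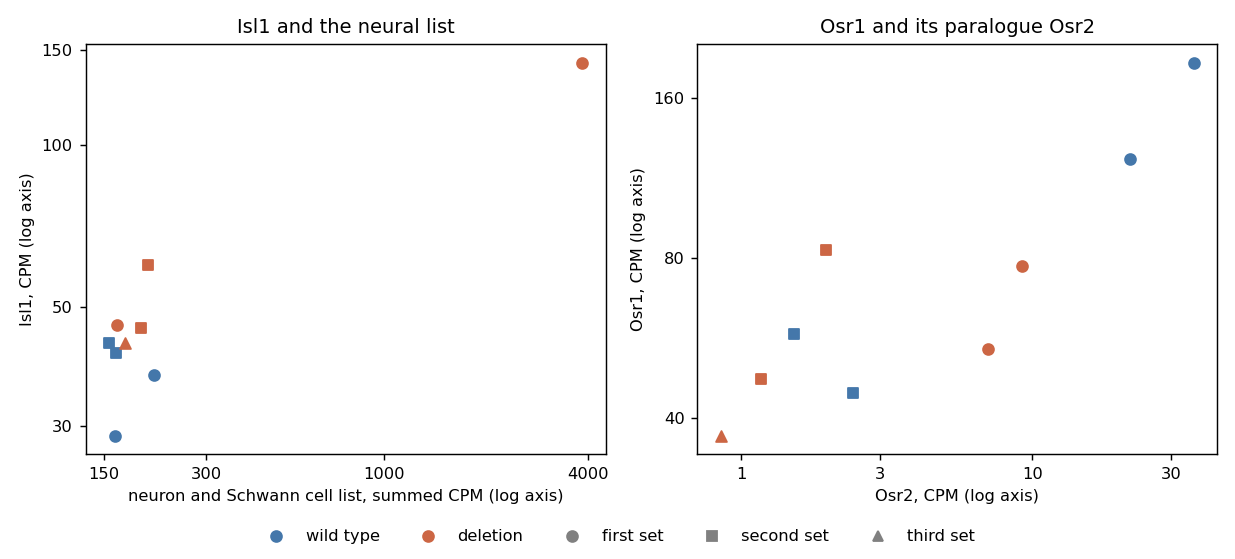
Left, Isl1 against the summed level of the neuron and Schwann cell list, and right, Osr1 against its paralogue Osr2, both in CPM on log axes, with 1 point per library, colour for genotype and marker shape for the name-number set. Deletion 2 lies alone at 3843 CPM of the neural list and 142 CPM of Isl1, and wild type 1 and 2 lie at the top of both Osr axes.

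Tbx1 was at 7.65, 7.08, 2.88 and 2.93 CPM in wild type 1 to 4 and at 3.83, 1.64, 3.06, 2.85 and 1.57 CPM in deletion 1 to 5. Wild type 1 and 2 were above every other library, and wild type 3 and 4 were no higher than deletion 1 and 3. The means were 5.13 ± 2.59 CPM (SD, n = 4) and 2.59 ± 0.970 CPM (n = 5). For genotype the log2 fold change was -0.98 (SE 0.400, edgeR adjusted p = 0.896), and -0.85 (SE 0.406) without deletion 2. The unadjusted p without deletion 2 was 0.0623 in edgeR and 0.0379 in DESeq2. The exact permutation p was 0.111 with all libraries and 0.229 without deletion 2. Within the first set the log2 fold change was -1.41 and within the second 0.02, a difference of 1.45 by the edgeR interaction test (adjusted p = 0.585).

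Eya1, the coactivator, showed the same division at a much lower level. It was at 3.25, 3.03, 0.494 and 0.872 CPM in wild type 1 to 4 and at 1.21, 0.733, 0.668, 1.21 and 0.0531 CPM in deletion 1 to 5, so that wild type 1 and 2 alone exceeded the deletion range. The means were 1.91 ± 1.43 CPM (SD, n = 4) and 0.775 ± 0.478 CPM (n = 5). Its log2 fold change was -1.30 (SE 0.752, edgeR adjusted p = 0.900), and the exact permutation p was 0.238. It was -1.67 in the first set and 0.44 in the second (edgeR interaction 2.13, adjusted p = 0.532). The second-set values rest on 17 and 36 reads in wild type 3 and 4 and on 24 and 34 reads in deletion 3 and 4.

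Foxf1 was at 9.46, 3.23, 1.69 and 0.920 CPM in wild type 1 to 4 and at 2.34, 1.88, 0.835, 2.10 and 0.797 CPM in deletion 1 to 5. Wild type 1 alone carried most of the group mean of 3.82 ± 3.88 CPM (SD, n = 4), against 1.59 ± 0.725 CPM (n = 5) in the deletion libraries. The log2 fold change was -1.26 (SE 0.630, edgeR adjusted p = 0.896), and the exact permutation p was 0.302. Without wild type 1 the log2 fold change was -0.29. It was -1.57 within the first set and 0.16 within the second (edgeR interaction 1.75, adjusted p = 0.691). The exon of an opposite-strand gene, Gm27530, overlaps Foxf1, but it was listed at 0 in all libraries, and Fendrr, the divergent long noncoding RNA next to Foxf1, was at 0.454 CPM or less.

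Osr1 was at 186, 123, 57.5 and 44.7 CPM in wild type 1 to 4 and at 77.4, 54.0, 47.3, 83.0 and 37.1 CPM in deletion 1 to 5. The groups overlapped, since wild type 3 and 4 were within the deletion range. The means were 102.8 ± 65.3 CPM (SD, n = 4) and 59.8 ± 19.7 CPM (n = 5), with a log2 fold change of -0.78 (SE 0.407, unadjusted edgeR p = 0.0834) and an exact permutation p of 0.246. Of the 9 genes it had the lowest p for a genotype difference that itself differed between sets: -1.22 in the first and 0.35 in the second, an interaction of 1.58 (edgeR adjusted p = 0.453). Its paralogue Osr2 had a wider range and was likewise highest in wild type 1 and 2, at 35.9 and 21.7 CPM. Osr2 was at 9.22 and 7.05 CPM in deletion 1 and 2, and at 0.850 to 2.42 CPM in the other 5 libraries. Osr1 did not follow that order among the deletion libraries, where deletion 4 was above deletion 1 and 2. The log2 difference of Osr2 between the second and first set was -3.15 (edgeR adjusted p = 0.00512).

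These 4 genes, Tbx1, Eya1, Foxf1 and Osr1, are the ones of the 9 in which wild type 1 and 2 held the highest values, a pattern chosen after the values were seen and present in 8.53% of all genes tested. The interaction of genotype and set had an unadjusted edgeR p below 0.05 for Tbx1, Eya1 and Osr1, 3 of 9, against 8.06% of all genes. No interaction of the 9 passed adjustment, and 2 of the 16522 genes did (0.0121%). The interaction was above 0 for 8 of the 9 (all but Isl1) and for 48.6% of all genes. The median of the 9 was -1.02 within the first set and 0.32 within the second, against 0.017 and 5.4e-05 over all genes.

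Markers of other cells differed in wild type 1 and 2 as well. The summed level of the 10 epicardium genes was 1281 and 1304 CPM in these libraries, against 834 and 990 CPM in wild type 3 and 4 and 516 to 924 CPM in the deletion libraries. The 10 erythroid genes summed to 6668 and 10350 CPM, against 1825 and 2234 CPM in wild type 3 and 4 and 1885 to 5720 CPM in the deletion libraries. The 15 neural crest and cushion genes went the other way, with 1192 and 974 CPM against 2583 and 3036 CPM in wild type 3 and 4 and 1869 to 2904 CPM in the deletion libraries. None of these 3 lists had a gene at 0 in all libraries. Wild type 1 and 2 were not alike in the outflow tract myocardium list, which summed to 8356 and 19690 CPM in them. That list was at 17210 and 17760 CPM in wild type 3 and 4 and at 11750 to 16010 CPM in the deletion libraries. The part of all these lists in the levels of Tbx1, Eya1, Foxf1 and Osr1 was not tested. In bulk RNA, fewer cells of a type and less RNA per cell cannot be told apart. As a description over the 9 libraries, Tbx1 and the epicardium list had r = 0.95, and after removal of the set means over 8 libraries r = 0.96. The same 2 values were 0.75 and 0.88 for Eya1, 0.68 and 0.54 for Foxf1, and 0.80 and 0.73 for Osr1. Tbx1 was not tied to this list alone. It had 0.83 and 0.88 with the smooth muscle list and -0.74 and -0.93 with the cofactor list. Of the 10 epicardium genes, 5 were lower in the deletion libraries at an unadjusted edgeR p below 0.05 (2.94% of all genes), with a median log2 fold change of -0.55. Without deletion 2, 4 were lower (3.52% of all genes) and 1 higher (1.86%). The median of this list was -0.89 within the first set and -0.05 within the second. Krt19, an epithelial keratin of the epicardium, fell from 71.0 to 106.8 CPM in wild type to 35.6 to 61.8 CPM in the deletion libraries, a DESeq2 call (adjusted p = 0.0203, edgeR adjusted p = 0.679).

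Foxc1, Foxc2 and Nkx2-6 differed between the name-number sets. Foxc1 was at 57.5, 38.5, 66.4 and 63.0 CPM in wild type 1 to 4 and at 51.5, 45.7, 69.0, 93.0 and 68.8 CPM in deletion 1 to 5. All 4 libraries of the second set were above all 4 of the first, and the genotype groups overlapped (56.3 ± 12.5 CPM, SD, n = 4, and 65.6 ± 18.5 CPM, n = 5). The log2 fold change was 0.22 (SE 0.218, edgeR adjusted p = 0.939), and the exact permutation p was 0.437. Foxc2 was at 22.6, 19.2, 30.3 and 26.9 CPM in wild type and at 18.1, 14.2, 29.3, 31.4 and 27.3 CPM in the deletion libraries, with the same separation of sets. Its means were 24.7 ± 4.85 CPM (SD, n = 4) and 24.1 ± 7.48 CPM (n = 5), its genotype log2 fold change was -0.04 (SE 0.237, edgeR adjusted p = 0.995), and the exact permutation p was 0.770. Nkx2-6 was at 0.278, 0.894, 2.00 and 2.15 CPM in wild type and at 0.383, 0.175, 2.51, 1.89 and 0.797 CPM in the deletion libraries. Its log2 fold change was -0.22 (SE 0.773, edgeR adjusted p = 0.986), with an exact permutation p of 0.706. Its counts were low, 10 reads in wild type 1 and 5 reads in deletion 2, and an opposite-strand gene, 1700092C10Rik, overlaps its exons at 0 to 0.785 CPM, so that without a stated strand setting its level is uncertain.

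With genotype in the model, the second set was above the first by 0.68 on the log2 scale for Foxc2 (SE 0.140, edgeR adjusted p = 0.0215), by 2.36 for Nkx2-6 (SE 0.501, adjusted p = 0.0236) and by 0.58 for Foxc1 (SE 0.151, adjusted p = 0.0451). That is 3 of 9 genes, all higher in the second set, against 9.65% of all genes (5.48% higher and 4.17% lower). The call rested on single libraries: without wild type 3, deletion 3 or deletion 4 none of the 9 passed, and without wild type 4 or deletion 1 a single one did, while the number over all genes, 1594, fell to as few as 380. The direction held for these 3 genes without each library in turn, at 0.46 to 0.74 for Foxc1, 0.57 to 0.77 for Foxc2 and 2.09 to 2.91 for Nkx2-6. The full separation of these sets, chosen after the values were seen, was found upward in 11.1% and downward in 8.36% of all genes, and in 3 and 0 of the 9. Neural crest and cushion genes, among them Sox9 (39.0 to 154 CPM in the first set and 215 to 277 CPM in the second), had 9 of 13 tested members called higher in the second set. Their part in the Foxc1 and Foxc2 levels was not tested.

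Six2 had no division by genotype or set. It was at 5.34, 2.73, 3.43 and 4.53 CPM in wild type 1 to 4 and at 4.03, 3.21, 6.07, 5.02 and 2.95 CPM in deletion 1 to 5, the groups overlapping over nearly their whole range. The means were 4.01 ± 1.16 CPM (SD, n = 4) and 4.26 ± 1.30 CPM (n = 5). The genotype log2 fold change was 0.09 (SE 0.295, unadjusted edgeR p = 0.775), 0.17 without deletion 2, and the exact permutation p was 0.778. The set difference was 0.30 (edgeR adjusted p = 0.551).

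Across libraries the 9 genes fell into blocks, given here as a description because libraries of a set share whatever divides the sets. Osr1 and Foxf1, both of the posterior field, had the highest correlation of log2 CPM (r = 0.96 over 9 libraries, 0.98 without deletion 2, 0.93 over the first and second sets with set means removed). Tbx1 correlated with Osr1 at 0.88 and with Eya1 at 0.85, and these values were 0.82 and 0.86 with set means removed. Foxc1 and Foxc2 correlated at 0.84, and at 0.44 with set means removed. For Foxc2 that step turned the sign: its correlation with Osr1 went from -0.25 to 0.94 and with Tbx1 from -0.08 to 0.89. Isl1 and Foxc1 had r = 0.00 over 9 libraries and 0.88 without deletion 2, a difference made by 1 library.

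**Figure D4:**
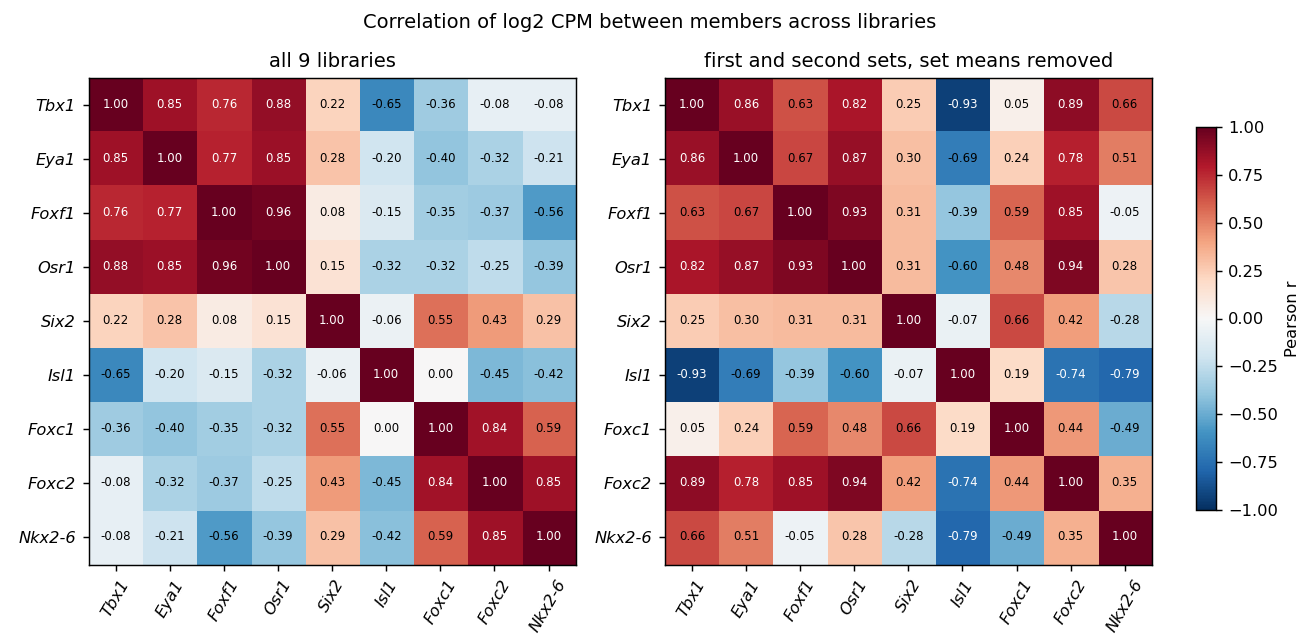
Pearson correlation of log2 CPM between each pair of the 9 genes (colour scale from -1 to 1), left over all 9 libraries and right over the 8 libraries of the first and second sets after the mean of each set was subtracted. Tbx1, Eya1, Foxf1 and Osr1 form a block in both panels (0.63 to 0.96), and Foxc2 joins it only on the right.

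Among 11309 tested genes with a mean of at least 5 CPM, the genes most like each of the 9 over the 9 libraries were named by Pearson r of log2 CPM. Values picked as the highest of so many over few libraries are high by selection, and libraries of a set share whatever divides the sets. The names are therefore a description, and a shared function was not tested. Osr1 was most like Kdelc2 (0.98), Cpz (0.98) and the procollagen peptidase gene Adamts2 (0.98), and Foxf1 most like Vstm4, Col9a2, a cartilage-type collagen chain, and again Kdelc2 (all 0.98). Tbx1 was most like S1pr3, a sphingosine phosphate receptor, and Hic1, a mesenchymal repressor (both 0.97), and Eya1 like Tmem19 (0.97). Isl1 was most like Usp25 (0.98) over 9 libraries, and like Arhgef3 (0.96) without deletion 2. Over all 9 libraries Isl1 and Arhgef3 had r = 0.69, and without deletion 2 Isl1 and Usp25 had r = 0.91. Foxc1 was most like Mogat2 (0.98) and Aqp1, a water channel (0.97), Foxc2 like Kank1 (0.98) and Fzd1, a Wnt receptor (0.98), Nkx2-6 like the splicing factor Eftud2 (0.99) and Six2 like Cep162 (0.94).

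Genes of the surrounding network were taken from 4 lists. Of 20 tested relatives of the 9, 1 was higher and 1 lower in the deletion libraries at an unadjusted edgeR p below 0.05. Over all genes tested these shares were 2.32% and 2.94%. The relatives had a median log2 fold change of 0.27 (0.13 without deletion 2). The lower one was Nkx2-5. The higher one was Tbx20, a T-box factor of heart muscle and cushions, at 339, 328, 597 and 659 CPM in wild type and 578 to 815 CPM in the deletion libraries (log2 fold change 0.52, SE 0.217, edgeR adjusted p = 0.896). Its genotype estimate was 1.07 in the first set and -0.02 in the second, an interaction of -1.08 (edgeR adjusted p = 0.213), opposite in sign to that of Tbx1.

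Of 14 tested cofactors, 1 was higher (2.32% of all genes) and none lower (2.94%), with a median of 0.07. This was Lmo4, a LIM-only protein that shares the LDB adaptor with ISL1, at 85.8, 68.3, 87.0 and 84.5 CPM in wild type and 102, 109, 98.9, 96.2 and 99.7 CPM in the deletion libraries. Its groups did not overlap (log2 fold change 0.31, SE 0.0939, edgeR adjusted p = 0.896). Of 32 tested upstream signal genes 3 were higher (2.32% of all genes) and none lower (2.94%), with a median of 0.12. They were Fgf10, Id1, a target of BMP signalling, and Cyp26a1, which degrades retinoic acid.

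Of 25 tested downstream targets, 2 were higher (2.32% of all genes) and 3 lower (2.94%), with a median of 0.13. Without deletion 2, 1 was higher (1.86% of all genes) and 3 lower (3.52%). Fgf10, the growth factor of the anterior field and a target of both ISL1 and TBX1, was at 3.49 to 9.11 CPM in wild type and 9.58 to 14.6 CPM in the deletion libraries. It had no overlap between groups and a log2 fold change of 1.01 (SE 0.261, edgeR adjusted p = 0.896, DESeq2 adjusted p = 0.0533), with 0.86 and 1.30 in the sets. An annotated gene on the opposite strand overlaps its exons, so it can hold reads of that gene. Sema3c, the guidance factor of outflow tract septation, was at 190 to 294 CPM in wild type and 95.5 to 183 CPM in the deletion libraries (log2 fold change -0.81, SE 0.198, edgeR adjusted p = 0.896, DESeq2 adjusted p = 0.0573).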

How the data were processed

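RNA from 9 mouse outflow tract samples was extracted on RNeasy columns and made into low-input SMART-Seq libraries, per the labels' protocols. Each library has 1 deposited file of read counts, whole numbers by gene symbol. The submitters' processing notes name HTSeq 0.6.0, STAR 2.5.0c, DESeq2 and Picard, with mm10 as the build; no source used here gives their order, the annotation or the strand setting. The 5 rows that name no gene (20.6% to 23.5% of reads) were left out. No 2 libraries agreed within sampling noise.

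The test was edgeR 4.0.16 under R 4.3.3 (robust quasi-likelihood test, TMM factors, filterByExpr with a minimum count of 10, genotype only, two-sided, Benjamini-Hochberg over all 16522 genes, threshold 0.05); the standard error is the size of the log2 fold change over the root of its F statistic. The procedure was tested on simulated data. CPM uses TMM-scaled totals, and log2 CPM a prior count of 2. Single genes were also tested by exact enumeration of the 126 labellings (70 without deletion 2). Per-length values use GENCODE vM21 exons. DESeq2 1.42.0 and limma 3.58.1 (voom with sample weights) were alternatives, with other filters and scalings, the replicate block, the name-number set as a term, fits within sets, and each library left out.

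Replicate numbers come from the sample titles. For numbers 1 to 4, the correlation between the wild-type and the deletion library's deviations from their group means was 0.24, 0.14, 0.23 and 0.18. All exceed 0.1, and the numbers were used as a block in an alternative fit, while the main test was unpaired. Libraries of equal number also share a name-number set, so these values cannot tell a pairing from the sets. Wild type 2 and 4 correlated best with deletion 1 and 5.

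All 9 genes are reported whatever their values. From each other list, genes called by edgeR or DESeq2 and the 3 with the smallest edgeR p were eligible to be named, with set paralogues and defining markers of other cell types. The genes beside Foxf1 and Nkx2-6 and the patterns over sets of libraries were picked with their values in view. Some genes that this rule names are not reported here. The 9 genes and the lists (relatives, cofactors, upstream signals, downstream targets, and markers of neurons and Schwann cells, foregut epithelium, lung and splanchnic mesenchyme, skeletal muscle, neural crest and cushion, endothelium, epicardium, outflow tract myocardium, smooth muscle and erythroid cells) were chosen with earlier results of these data known.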

Additional observations from a re-analysis of the deposited data

Results flagged for a closer look

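Isl1 in deletion 2, at 142 CPM, lay far from the other 4 deletion libraries (42.9 to 59.7 CPM): its gap to the nearest was 0.831 of the group's range, above the critical value of 0.71 for 5 samples. It was the single one flagged among 18 groups (9 genes in 2 genotypes), and chance flags about 1 group in 20. The same library had 3843 CPM of the neuron and Schwann cell list against 211 CPM at most elsewhere, and the Isl1 difference without it is 0.38 on the log2 scale.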

How the results depend on the processing

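Of 197 refits of single genes of the 9, 174 kept direction and side of the threshold and 23 reversed; the lowest adjusted p was 0.513. The number of genes called over the whole table was 0 with edgeR, 38 with DESeq2, 65 with DESeq2 without deletion 2, 4 with limma-voom, 1 within the first set, 7 within the second, and 0 to 1 with each library left out. With the replicate block, edgeR called 0 genes and DESeq2 69; the block changed no call among the 9. Reversals within the second set were Tbx1 0.024, Eya1 0.44, Foxc2 0.084, Foxf1 0.16, Nkx2-6 0.079 and Osr1 0.35, and within the first set Six2 -0.14. With the second set and deletion 5 together Foxc2 was 0.037 and Osr1 0.13. Without deletion 2, Foxc2 was 0.10 in DESeq2 and with the filter set again, Nkx2-6 was 0.062 and 0.056, and the log2 CPM differences were 0.090 and 0.092; the neuron and Schwann list median was -0.31. With each library left out the log2 fold change ran over 0.38 to 0.97 for Isl1, -1.17 to -0.73 for Tbx1, -0.073 to 0.26 for Six2, -1.61 to -0.92 for Eya1, 0.06 to 0.33 for Foxc1, -0.15 to 0.10 for Foxc2, -1.58 to -0.29 for Foxf1, -0.73 to 0.12 for Nkx2-6 and -1.02 to -0.33 for Osr1. The set comparison called 0 to 3 of the 9 and 380 to 1724 genes, and the Isl1 set difference (-0.25) ran over -0.46 to 0.28, the latter without deletion 2. The cause of these changes was not tested. Eya1 was not in the fit that asked for 50 counts in 4 libraries. Alternatives added after the data were seen are DESeq2 without deletion 2, the second set with deletion 5, the filter set again and those of the set comparison. Eya1 and Nkx2-6 had as few as 2 and 5 reads in a library.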

Other observations

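Lists of other cell types, some of them with summed levels given above, gave these values. Of 9 tested smooth muscle genes, 5 were lower in the deletion libraries at an unadjusted edgeR p below 0.05 and none higher (2.94% of all genes lower), with a median log2 fold change of -0.28. Without deletion 2, 3 were lower (3.52% of all genes). The median of the smooth muscle list was -0.50 within the first set and -0.09 within the second. Myh11, the smooth muscle myosin heavy chain, was at 34.5 CPM in wild type 1, where Foxf1 was also highest, at 7.87 CPM in wild type 2 and between 2.98 and 6.38 CPM elsewhere. Barx1, a homeodomain gene of splanchnic and pharyngeal mesenchyme, was at 2.25 to 4.07 CPM in wild type and at 0 to 1.23 CPM in the deletion libraries (log2 fold change -2.13, SE 0.716, edgeR adjusted p = 0.896). Of 6 tested foregut epithelium genes, Krt8 was a DESeq2 call, at 24.2 to 33.0 CPM in wild type and 11.3 to 17.9 CPM in the deletion libraries (DESeq2 adjusted p = 5.62e-06, edgeR adjusted p = 0.213), while Epcam was at 3.64 CPM or less. Krt8 overlaps an annotated opposite-strand gene, whose reads cannot be told apart without the strand setting. Of the skeletal muscle defining genes, Myod1 was at 1.19 CPM or less and Myf5 at 0.0497 CPM or less, while Myog was at 2.00 and 3.45 CPM in wild type 1 and 2 and at 0.942 CPM or less elsewhere. Ckm, the muscle creatine kinase, was at 87.4 and 200.9 CPM in wild type 1 and 2, 83.2 CPM in deletion 2 and 5.93 to 32.9 CPM elsewhere. The endothelium list, with a median of 0.12, had no gene of 14 at an unadjusted edgeR p below 0.05. Over all genes tested, 2.32% were higher and 2.94% lower at that p, and 1.86% and 3.52% without deletion 2. The higher gene of the lung and splanchnic mesenchyme list, counted next, was Fgf10, also counted above among upstream signals and downstream targets. Median log2 fold changes of the remaining lists were 0.29 for foregut epithelium (0 of 6 tested genes higher and 2 lower at that p, 1 lower without deletion 2), 0.07 for lung and splanchnic mesenchyme (1 of 9 higher, 1 lower), -0.58 for skeletal muscle (0 of 7 higher, 1 lower, 2 lower without deletion 2), -0.27 for outflow tract myocardium (0 of 12 higher, 2 lower), 0.37 for neural crest and cushion (3 of 13 higher, 0 lower) and -1.07 for erythroid genes (0 of 10 in either direction), against 0.0029 over all genes tested.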
